A study of Rattus norvegicus with 30 samples.

Results

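The locus described here is the stretch of rat chromosome 1 from 40.78 to 40.86 Mb on genome build rn5. It was chosen because its CpGs had higher methylation ratios in aged than in young rats. Its members were all cytosines of that 80 kb stretch with deposited methylation ratios, with the sequence contexts CpG, CHG and CHH (H is any base except G) kept apart. The calls made for aged against young rats held 37 CpGs of 85484, 45 CHG sites of 266960 and 123 CHH sites of 707223 at the locus, which is 205 sites of 1059667. The calls made for the impaired and unimpaired aged rats held 38 CpGs of 80903, 38 CHG sites of 256337 and 133 CHH sites of 687718, which is 209 sites of 1024958. Across both sets of calls there were 247 different sites, and 167 were in both. The position of the locus relative to genes, exons and promoters was not analysed here.

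The samples were pieces of medial prefrontal cortex, taken around the prelimbic and infralimbic areas of male Fischer 344 rats, whose DNA was sequenced after bisulfite treatment without enrichment for any part of the genome. There were 10 young rats of 5 to 6 months and 20 aged rats of 17 to 22 months. By their performance on a set shifting task, an operant test of cognitive flexibility that depends on this cortex, the aged rats were divided into 9 impaired rats (aged impaired, AI) and 11 unimpaired rats (aged unimpaired, AU). All groups, young rats included, had been food restricted and trained on the task before the tissue was taken. The tissue is a mixture of cell types, so a ratio is an average over neurons and other cells, and a change in the methylation of cells cannot be told apart from a change in the mixture.

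In mammalian DNA most CpGs away from CpG islands are methylated, whereas CHG and CHH cytosines carry little methylation in most tissues and more in neurons, where it accumulates after birth. Methylation at a CpG is copied to the new strand by DNMT1 when DNA is replicated, is placed anew by DNMT3A and DNMT3B, and can be oxidised by TET enzymes. Bisulfite converts unmethylated cytosine to uracil and leaves methylated cytosine unchanged, so the ratio at a site is the share of reads that kept a cytosine, from 0 to 1, and 5-hydroxymethylcytosine is read as methylated.

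The sites of the locus lay in 4 separate segments, taken as sites less than 1000 bp apart. In the aged against young calls, the segment from 40780479 to 40780686 held 1 CpG, 13 CHG and 30 CHH sites, and the segment from 40801168 to 40801259 held no CpG, 3 CHG and 14 CHH sites. The segment from 40850884 to 40850995 held 1 CpG, 4 CHG and 3 CHH sites. The remaining segment, from 40819486 to 40820789, held 35 of the 37 CpGs, with 25 CHG and 76 CHH sites, and is called the main segment. Its 35 CpGs ran from 40819502 to 40820774, over 1273 bp. That is 2.75 CpGs per 100 bp, close to the median of 2.62 over the 4435 segments of at least 5 CpGs in the whole table, but it held more CpGs than most, since the median segment had 7 and 209 segments had at least 35. In the calls for the aged rats alone the main segment reached from 40819103 to 40820814, with 36 CpGs. No CpG of the locus had the cytosine of the opposite strand, 1 bp away, among the deposited sites, whereas 20.9% of all CpGs in the aged against young calls had a deposited CpG 1 bp away.

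At the edges of the locus the difference had the other sign. The last CpG before it, at 40779808, averaged 0.906 over 11 aged rats and 0.95 over 4 young rats. The first CpG inside, at 40780566, had 0.889 in 7 aged and 0.841 in 4 young rats. The last CpG inside, at 40850884, had 0.986 in 6 aged and 0.822 in 3 young rats, and the first beyond the locus, at 40891774, had 0.670 in 4 aged and 0.811 in 3 young rats.

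Aged rats had higher CpG ratios at the locus than young rats, and the values that show this are those by which the locus was chosen, so they are given as a description with no test. For each rat the ratios of all CpGs of the locus with a value were averaged. A ratio was deposited only where a rat had at least 5 reads, so rats had between 0 and 37 of the 37 CpGs. In the 18 aged rats with a value the mean was 0.876 ± 0.0889 (SD), with a lowest value of 0.689, a median of 0.913 and a highest value of 0.975. In the 10 young rats it was 0.713 ± 0.139, with a lowest value of 0.40, a median of 0.711 and a highest value of 0.933. The difference was 0.164, and the groups overlapped. The lowest and the highest young values rested on 2 and 3 CpGs, and among rats with at least 8 CpGs the means were 0.882 ± 0.0863 in 16 aged and 0.711 ± 0.0537 in 7 young rats. Over all deposited CpGs the rats were far closer together, with means from 0.694 to 0.707 in aged and from 0.699 to 0.707 in young rats.

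The rat identifiers in the labels fall into 3 number series. The values of aged and young rats are given for each, with no test of whether the age difference varied between series. Series A held 11 aged rats (5 AI and 6 AU) and 3 young rats, series B held 8 aged rats (4 of each) and 3 young rats, and series C held 4 young rats and 1 aged rat, which was AU. The study's methods do not describe these series, and whether they mark a cohort, a library preparation or a sequencing run is not given in the sources used here.

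In series A the 11 aged rats had a mean CpG ratio of 0.927 ± 0.0292, from 0.878 through a median of 0.932 to 0.975. The 3 young rats of series A had 0.671, 0.669 and 0.652. Every aged rat of this series therefore lay above every young rat, with a difference of 0.263 between the means. Of the 3712 segments of at least 5 CpGs that could be compared in this way, 0.404% had all aged rats of series A above all of its young rats, and since this is the contrast by which the locus was chosen nothing is read from that share.

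In series B, 6 of the 8 aged rats had a CpG value, namely 0.689, 0.805, 0.925 and 0.904 in the AI rats and 0.708 and 0.736 in the AU rats. The 3 young rats of series B had 0.703 over 16 CpGs, 0.933 over 3 CpGs and 0.40 over 2 CpGs. The ages overlapped in this series, and the difference of 0.115 between the means was smaller than the SD of the young rats, 0.267. In series C the aged rat had 0.802 and the young rats had 0.769, 0.794, 0.814 and 0.718, so the aged rat lay within the range of the young rats. Leaving out series A brought the difference between aged and young rats from 0.164 to 0.0622. Leaving out series B gave 0.190 and leaving out series C gave 0.209. The 0.0622, and the 0.115 within series B, both include the young rat with 0.40 over 2 CpGs. Neither is given here without that rat. The other young rats of series B had 0.703 and 0.933, against a mean of 0.794 in the aged rats of that series.

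**Figure D1:**
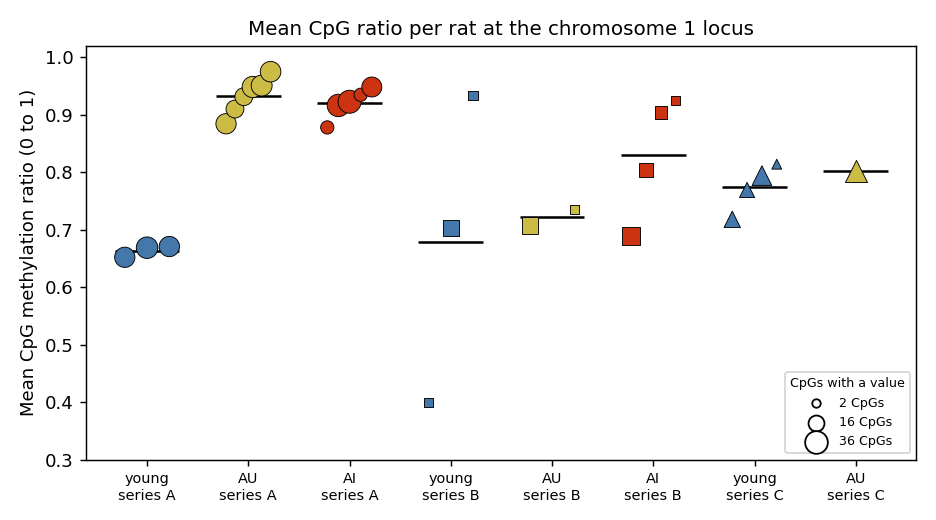
Mean CpG methylation ratio (0 to 1, vertical axis) of each rat at the locus, in the aged against young calls, by identifier series and group (young in blue, aged unimpaired, AU, in yellow, aged impaired, AI, in red). The area of a point grows with the number of CpGs with a value, and the bars are group means. All 11 aged rats of series A lie at 0.878 or above and its 3 young rats at 0.671 or below, while ages overlap in series B and C.

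Site by site, the mean ratio was higher in aged rats at 36 of the 37 CpGs, where 48.9% of all deposited CpGs were higher in aged rats. The differences ranged from -0.0857 to 0.376 with a median of 0.164, against a median of 0 to within rounding over all deposited CpGs. Each CpG had a value in 6 to 24 rats, with a median of 10 aged and 4 young rats. In the Welch test used by the study for each site, 11 of the 37 CpGs passed an unadjusted threshold of 0.05, all with higher ratios in aged rats, beside 2.41% of all CpGs in that direction and 6.13% in either direction. With limma 18 passed, beside 6.64% of all CpGs, and with series as a covariate 20 passed, beside 6.5%. After Benjamini-Hochberg adjustment limma left 1 of these, beside 0.0398% of all CpGs, and limma with series left 2, beside 0.0877%. These counts come from the ratios by which the locus was chosen, so nothing is read from them or from the shares beside them.

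The CpGs with the largest differences, among the 18 with a value in at least 8 aged and 5 young rats, were spread along the main segment. The CpG at 40819710 differed most, with 0.857 ± 0.117 in 12 aged and 0.481 ± 0.148 in 6 young rats. Its young rats had 0.222, 0.444 and 0.556 in series A, 0.50 in series B, and 0.50 and 0.667 in series C, and its aged rats had a lowest ratio of 0.60, a median of 0.846 and a highest ratio of 1. Only the highest young rat and the lowest aged rat overlapped at this CpG. The neighbouring CpG at 40819724 had the smallest difference of the 18, with 0.897 ± 0.121 in 12 aged and 0.838 ± 0.105 in 6 young rats, and its aged and young rats overlapped over most of their range. A difference of 0.376 and one of 0.0587 were thus found 14 bp apart.

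At the far end of the segment, the CpG at 40820715 had 0.928 ± 0.0846 in 13 aged and 0.610 ± 0.160 in 5 young rats. The CpG at 40820728 had 0.977 ± 0.0599 in 12 aged and 0.699 ± 0.162 in 5 young rats. In the middle, the CpG at 40820213 had 0.943 ± 0.101 in 16 aged and 0.625 ± 0.266 in 5 young rats. Close by, the CpG at 40820204 had 0.929 ± 0.129 in 16 aged and 0.632 ± 0.180 in 7 young rats. At these 4 CpGs the median aged rat was fully methylated, and the young rats covered a wide range. At 40820213 the young rats of series A had 0.167, 0.625 and 0.786, and those of series C had 0.750 and 0.800. At 40820204 the aged rats of series A and series B had nearly the same means, 0.929 ± 0.133 (10 rats) and 0.933 ± 0.149 (5 rats). After 40819724, the lowest differences of the 18 were 0.105 at 40820114, 0.115 at 40819734, 0.122 at 40819921 and 0.125 at 40819908.

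Within series A the sites are again described without a test, since they belong to the contrast by which the locus was chosen. At least 2 aged and 2 young rats of this series had a value at 34 CpGs, and 32 were higher in the aged rats, where 47.8% of all CpGs with as many rats were. The median difference was 0.288, with a range from -0.0206 to 0.506. At 15 of the 34 CpGs the lowest aged rat was above the highest young rat, beside 1.61% of all CpGs, and nothing is read from these shares. Compared with the young rats of series C instead, the aged rats of series A were higher at 19 of 19 CpGs, beside 49.3% of all CpGs, with a median difference of 0.189. These comparisons share the aged rats of series A. Within series B only 3 CpGs had 2 rats of each age, and 1 was higher in aged rats, beside 47.6% of all CpGs.

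**Figure D2:**
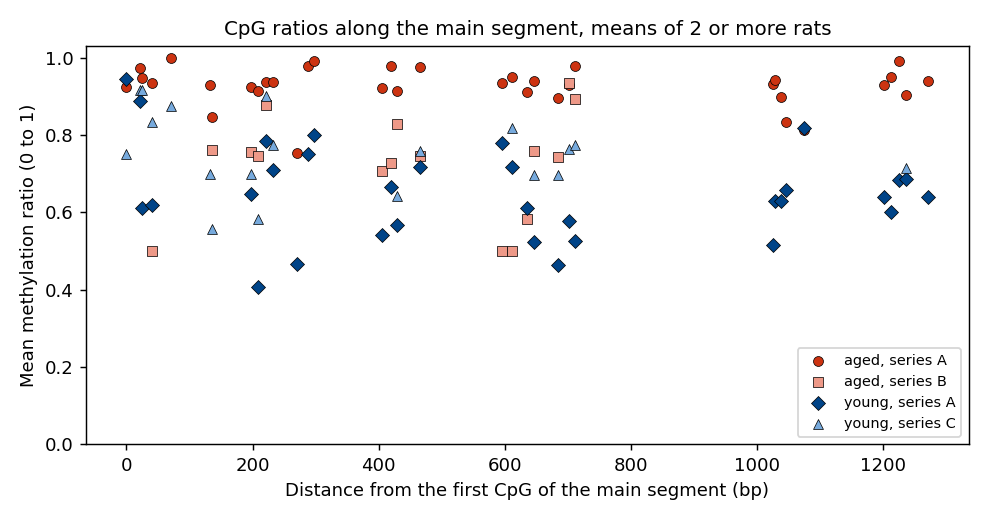
Mean methylation ratio (0 to 1, vertical axis) at each CpG of the main segment by distance from its first CpG in bp (horizontal axis), for aged and young rats of identifier series A, aged rats of series B and young rats of series C, where 2 or more rats had a value. The means of aged rats of series A lie mostly above 0.9 along the segment, and those of young rats of series A mostly between 0.4 and 0.8.

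The CpGs of the main segment fell into 5 runs of at least 4 CpGs less than 100 bp apart, and aged rats had the higher mean in each. The run of 14 CpGs from 40819502 to 40819799 had 0.864 ± 0.101 in 14 aged and 0.723 ± 0.0692 in 7 young rats. The run of 4 from 40819908 to 40819967 had 0.894 ± 0.105 in 15 aged and 0.730 ± 0.171 in 6 young rats. The widest gap was in the run of 7 CpGs from 40820098 to 40820213, with 0.885 ± 0.104 in 17 aged and 0.632 ± 0.128 in 8 young rats. The run of 5 from 40820528 to 40820577 had 0.882 ± 0.0933 in 6 aged and 0.766 ± 0.221 in 3 young rats, and the last run of 5, from 40820704 to 40820774, had 0.934 ± 0.0431 in 13 aged and 0.711 ± 0.168 in 6 young rats. In the first 3 runs, where at least 3 aged rats of series B had values, the aged rats of series A had means of 0.932, 0.937 and 0.934 and those of series B had 0.744, 0.752 and 0.795.

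The aged rats of series A were closer to full methylation than any other set of rats. Of the 279 CpG ratios of these rats, 68.5% were at least 0.9 and 0.717% were at most 0.5. In young rats 14.1% of 170 ratios were at least 0.9 and 18.8% were at most 0.5. The aged rats of series B had 20.6% of 63 ratios at 0.9 or more, and the aged rat of series C had 23.5% of 34. No CpG ratio of the locus was 0, in any of 546 values, where 4.09% of the ratios over all deposited CpGs were 0. Since ratios were deposited without read numbers, the counting error of a single ratio is unknown, and ratios from few reads can take only a few values, 1 among them.

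Among aged rats the identifier series itself was compared, a contrast other than the one by which the locus was chosen. The aged ratios compared are nevertheless those that entered the choice, and series A supplied 279 of the 376, so the CpG values of this contrast are a description too, with no test. The CpG mean was 0.927 ± 0.0292 in the 11 aged rats of series A and 0.794 ± 0.101 in the 6 aged rats of series B with a value. The difference was 0.133. The ranges of the groups overlapped, from 0.878 to 0.975 and from 0.689 to 0.925. Over all deposited CpGs the same series had means of 0.698 and 0.699 (p = 0.370 by 2-sided exact permutation over rats), and over the 222 CpGs within 500 kb on either side of the locus they had 0.705 and 0.681 (p = 0.326 by exact permutation). By site, 15 of the 16 CpGs with at least 2 aged rats of each series were higher in series A, beside 49% of all CpGs, and 6 did not overlap, beside 1.19%, from which nothing is read.

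The share of sites with at least 5 reads differed between these series too. Of the 205 sites of the locus the share with a value was 70.9% ± 21.6 in the 11 aged rats of series A and 16.2% ± 15.7 in the 8 aged rats of series B (p = 0.000106 by exact permutation, adjusted p = 0.000847 by Benjamini-Hochberg over the 8 permutation tests made at the locus). Over all deposited CpGs the shares were 67.2% and 40.8% (p = 5.29e-05 by exact permutation). At the CpGs of the locus alone the series were 47.3 percentage points apart (p = 0.000953 by exact permutation). Sites entered only with values in at least 3 rats per group, so rats with many values also shaped which sites were counted. These p-values do not allow for that. Among aged rats with at least 8 CpGs the CpG means of the series were 0.151 apart. The part of coverage in the difference between the series was not tested, and series and any batch that it marks cannot be told apart.

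**Figure D3:**
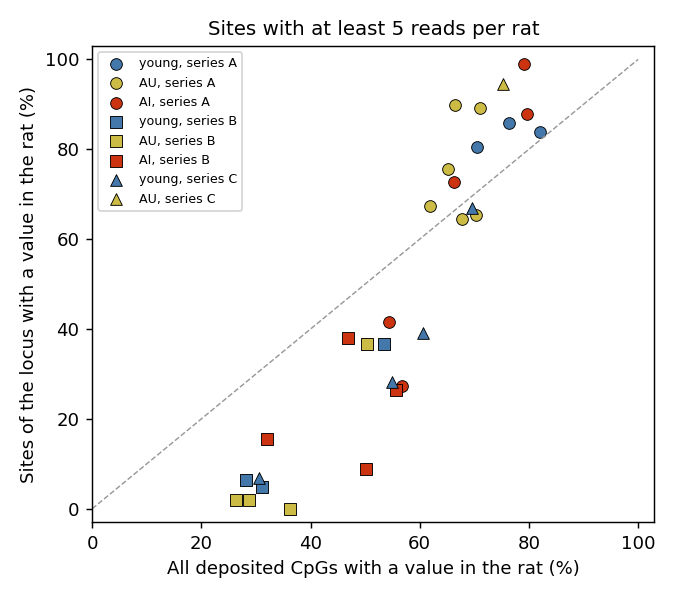
Share of the 205 sites of the locus with at least 5 reads in each rat (vertical axis, %) against the share of all deposited CpGs (horizontal axis, %), by identifier series (shape) and group (colour), with the line of equal shares dashed. The 8 aged rats of series B (squares) average 16.2% at the locus and 40.8% over all CpGs, below the line of equal shares.

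Impaired and unimpaired aged rats did not differ detectably in CpG methylation at the locus. The locus mean was 0.868 ± 0.0894 in the 9 AI rats, from 0.685 through a median of 0.904 to 0.949. It was 0.843 ± 0.132 in the 9 AU rats with a value, from 0.60 through a median of 0.894 to 0.966. The groups overlapped almost entirely, and the difference of 0.0244 was within the spread between rats (p = 0.656 by exact permutation, adjusted p = 0.757 over the 8 tests). Without the AU rat of 0.60, whose mean rested on 1 CpG, the difference was -0.00604, and 2 AU rats of series B had no CpG value at all. The share of the sites of this set with a value was 50.1% ± 32.9 in AI and 55.2% ± 38.4 in AU rats (p = 0.757 by exact permutation). At the main segment alone the difference was 0.0301, and 41.5% of 3939 segments differed at least as far from 0 in either direction.

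Within series A the AI and AU rats had the same level, 0.919 ± 0.0262 (5 rats) and 0.923 ± 0.0310 (6 rats), with a difference of -0.00451 (p = 0.801 by exact permutation). In series B the 4 AI rats had 0.685, 0.752, 0.873 and 0.904, and the 2 AU rats with a value had 0.659 and 0.60, the latter from 1 CpG. All 4 AI rats of series B lay above both AU rats, with a difference of 0.174 (p = 0.133 by exact permutation, the smallest value that 4 rats against 2 allow). The differences of series A and B were apart by -0.179 (permutation within each series, p = 0.0644), so a difference between the series was not established.

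Site by site, the AI rats had the higher mean at 15 of 38 CpGs and the lower mean at 23, where 49.6% of all deposited CpGs were higher in AI rats. The differences ranged from -0.300 to 0.228, with a median of -0.0174. In the Welch test 1 of the 38 CpGs passed the unadjusted threshold of 0.05, beside 4.1% of all CpGs, and none passed after adjustment, beside 0.00865% of all CpGs. With limma the CpGs at 40819931 and 40851807 passed the unadjusted threshold, beside 5.51% of all CpGs, and none after adjustment, beside 0.00989%. With series as a covariate in limma those at 40819931 and 40819921 passed unadjusted, beside 5.82%.

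The CpG that passed the Welch test was at 40819931, where the AI rats were lower. The 6 AI rats had 0.800, 0.833, 0.867 and 0.889 in series A and 0.625 and 0.857 in series B. The 7 AU rats had 0.833 and 4 ratios of 1 in series A, 1 in series B and 0.800 in series C. The means were 0.812 ± 0.0964 and 0.948 ± 0.0900. The unadjusted p was 0.0233 by exact permutation, a test run only at the 5 CpGs named for this comparison. These 5 had the smallest Welch p for the same comparison, so nothing is read from their exact p-values. The CpG 10 bp before it, at 40819921, was also lower in AI rats, with 0.862 ± 0.142 (6 rats) and 0.971 ± 0.0756 (7 rats), and passed only in limma with series as a covariate (p = 0.107 by exact permutation). At 40819119, near the start of the main segment, the AI rats had the higher mean, with 0.817 ± 0.234 (5 rats) and 0.589 ± 0.308 (8 rats), and ratios in AU rats ran from 0.143 to 1 (p = 0.168 by exact permutation).

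Outside the main segment, the other 2 CpGs of this set lay near the end of the locus. Neither passed the Welch test, and that at 40851807 passed unadjusted in limma. At 40850310 the 3 AI rats had 0.750, 0.846 and 1 and the 4 AU rats had 0.60, 0.714, 0.714 and 0.778 (p = 0.114 by exact permutation). At 40851807 the 3 AI rats had 0.40, 0.667 and 0.800 and the 3 AU rats had 0.857, 0.909 and 1. Every AI rat was below every AU rat at the second of these. The p of the exact permutation test there, 0.10, is the smallest that 3 rats against 3 allow. The share of all CpGs at which AI and AU rats did not overlap is not given here, so nothing is read from this.

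**Figure D4:**
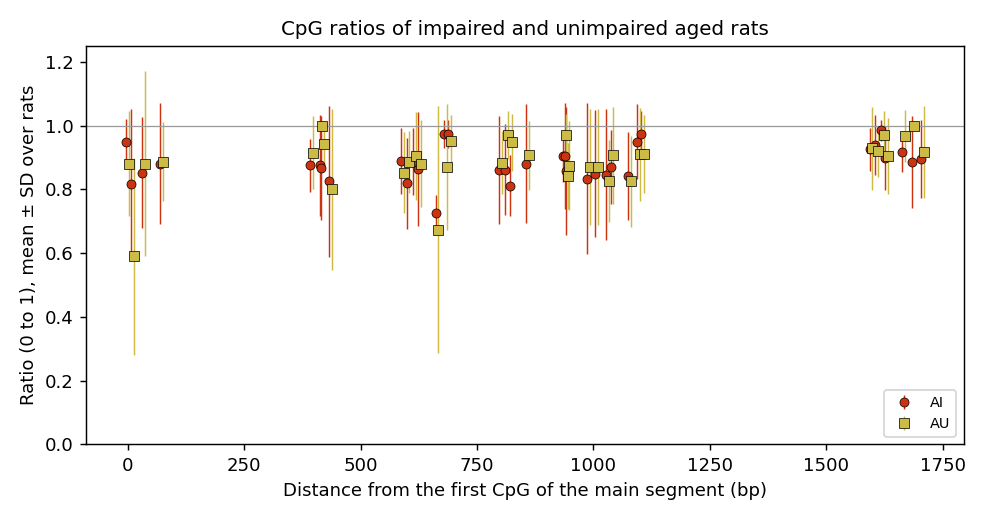
Methylation ratio (0 to 1, mean ± SD over rats, vertical axis) of aged impaired (AI, red) and aged unimpaired (AU, yellow) rats at the 36 CpGs of the main segment in the calls for aged rats, by distance from the first CpG in bp (horizontal axis). The bars of the groups overlap along the segment, and bars may pass 1 because they are symmetric; AI and AU symbols are set a few bp apart so that both can be seen.

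CHG and CHH methylation was low at the locus in all groups. Of the 616 CHG ratios 92.2% were 0, against 83.7% over all deposited CHG sites, and of the 1796 CHH ratios 92.0% were 0, against 87.9%. No CHG site and 1 CHH site had a mean over all rats above 0.1. The CHG mean per rat was 0.00826 in the 19 aged rats and 0.0163 in the 10 young rats with a value, and the CHH mean was 0.00938 in 18 aged and 0.00741 in 10 young rats, where no direction common to both contexts was seen. Without the young rat whose CHG mean of 0.0714 rested on 2 sites, the other 9 young rats had a CHG mean of 0.0102. Most CHG and CHH sites fell below the mean ratio of 0.1 in both groups and were not tested one by one, so that 1 CHG and 2 CHH sites of the locus were tested for aged against young rats. None of these passed the Welch test, beside 8.98% and 8.81% of all tested CHG and CHH sites.

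The CHH site with the highest mean was at 40801183, in the segment without CpGs. Its 9 aged rats ranged from 0 through a median of 0.222 to 0.375, with a mean of 0.213 ± 0.136, and 2 of them were at 0. The 5 young rats had 0, 0.200 and 0.250 in series A and 0 in both rats of series C. The second highest was at 40780516, with 0.0580 in 11 aged and 0.104 in 3 young rats. The site at 40780617 came next, with 0.0734 in 8 aged and 0.0333 in 3 young rats. Those at 40819774 and 40819969 followed, with highest single ratios of 0.50 and 0.200. Among CHG sites the highest mean over all rats was 0.0407 at 40820089, with 0.0509 in 12 aged rats and ratios of 0 in all 3 young rats. The CHG site at 40820561 had the other direction, with ratios of 0 in all 5 aged rats and of 0, 0.143 and 0.167 in the young rats. The CHG site at 40819683 was also lower in aged rats, with 0.0110 (13 rats) and 0.0774 (7 rats), and those at 40780501 and 40850995 were at 0 in all 3 young rats, with 0.0405 (11 rats) and 0.050 (5 rats) in aged rats.

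In the aged rats, the CHH mean was higher in series A than in series B, as the CpG mean was. It was 0.0127 ± 0.00455 in 11 rats and 0.00318 ± 0.00415 in 6 rats (p = 0.00194 by exact permutation, adjusted p = 0.00776). With each ratio taken relative to the mean of its site, since rats had values at different sites, the difference fell from 0.00952 to 0.00558 (p = 0.0310 by exact permutation). In series A every rat was above 0, from 0.00472 to 0.0191, whereas series B ran from 0 to 0.0104 and the median over sites was 0 in both. The 3 rats of series B at 0 had values at 2, 10 and 19 CHH sites, against 34 to 122 sites in the rats of series A. The CHG means, 0.0109 ± 0.00708 in 11 and 0.00437 ± 0.00750 in 7 rats, did not differ beyond the spread between rats (p = 0.0823 by exact permutation, adjusted p = 0.165). The CHG difference of 0.00656 was 0.00811 in the AI against AU calls (p = 0.0285 by exact permutation) and 0.000739 in rats with at least 8 CHG sites (p = 0.868 by exact permutation). Over all deposited sites CHH means were 0.0170 in series A and 0.0167 in series B (p = 0.395 by exact permutation), and CHG means were 0.0228 and 0.0227 (p = 0.508 by exact permutation).

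AI and AU rats did not differ detectably in either context at the locus. CHG means were 0.00803 ± 0.00811 in 9 AI and 0.00937 ± 0.00749 in 10 AU rats (p = 0.707 by exact permutation, adjusted p = 0.757). CHH means were 0.0103 ± 0.00709 in 9 AI and 0.00882 ± 0.00496 in 9 AU rats (p = 0.608 by exact permutation, adjusted p = 0.757). Within series A the CHH means were 0.0152 ± 0.00362 in 5 AI and 0.0111 ± 0.00326 in 6 AU rats (p = 0.0996 by exact permutation). None of the 4 CHH sites tested for AI against AU passed the Welch test, beside 6.1% of all tested CHH sites, and no CHG site of the locus could be tested.

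**Figure D5:**
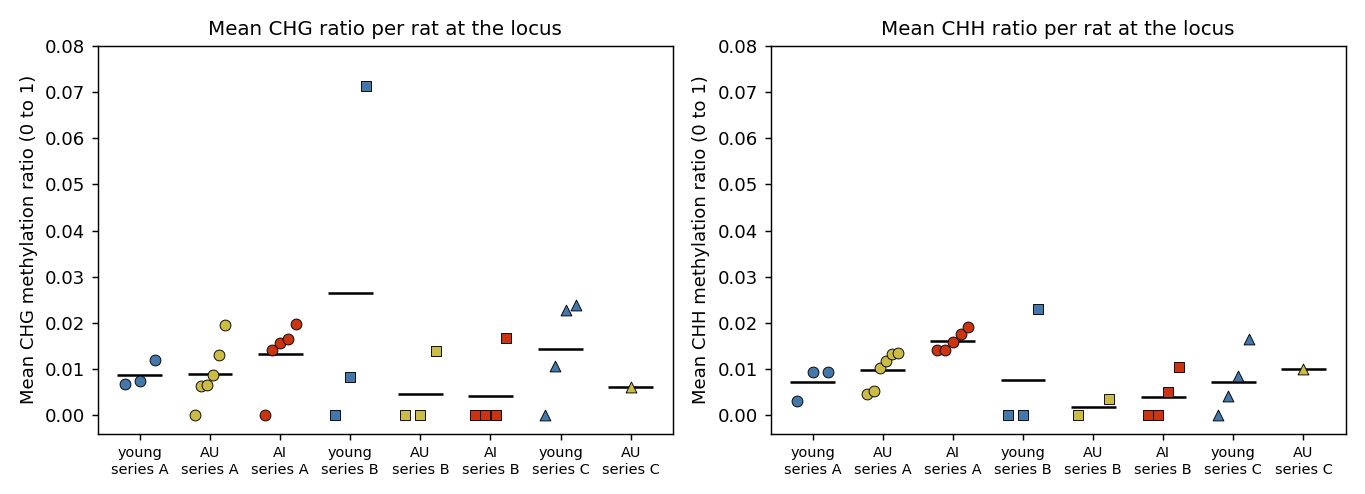
Mean CHG (left) and CHH (right) methylation ratio of each rat at the locus (vertical axes, same scale from 0), in the aged against young calls, by identifier series and group, with group means as bars. Means lie below 0.03 in all rats except the young rat of series B at 0.0714, whose CHG mean rests on 2 sites.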

How the data were processed

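Genomic DNA of 30 rats was bisulfite converted with the EZ DNA Methylation-Direct kit and made into libraries with the TruSeq DNA Methylation kit. Per the submitters' processing notes and the study's methods, reads were checked with FastQC, trimmed with Trimmomatic, aligned to rn5 with BSMAP and called with DMAP2; versions are not given in the sources used here. The authors deposited methylation ratios as fractions from 0 to 1 per cytosine and rat, separately for aged against young and for AI against AU rats. Each ratio needed at least 5 reads and each site at least 3 rats per group. Read numbers were not used here, since the tables hold ratios without them, so the share of sites with a value in a rat was taken as the measure of depth, no count model could be applied, and single ratios have no counting interval. The deposited SD column and group means were not used. All ratios at sites shared by both sets (323 CpG, 346 CHG and 1161 CHH ratios) were equal.

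Ratios of a rat were averaged per context over the locus. AI and AU rats, and aged rats of identifier series A and B, were compared by 2-sided exact permutation over rats (own functions, checked against scipy 1.17.1). The 8 tests were adjusted by Benjamini-Hochberg. The CpG comparison of the series is among them, but is given without p because its ratios entered the choice of the locus. The Welch test per site ran over whole tables at sites with at least 3 rats per group (CHG and CHH sites also with a mean over 0.1 in a group), with adjustment over all sites tested, and limma 3.58.1 was the alternative. The functions were tested on simulated data. Segments joined sites less than 1000 bp apart. The CpGs named were those with the 5 largest and 5 lowest age differences among CpGs with values in at least 8 aged and 5 young rats, the 5 with the smallest p for AI against AU, and up to 5 CHG and 5 CHH sites with the highest means. The members, lists and tests were chosen with earlier results of these data known.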

Additional observations from a re-analysis of the deposited data

Results flagged for a closer look

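The young rat with the lowest CpG mean at the locus, replicate 10 of the young group and of series B, stood apart from the other young rats. Its mean of 0.40 rested on 2 CpGs, and the nearest young rat had 0.652, a gap of 0.473 of the whole range. The same rat had the highest CHG mean, 0.0714 over 2 sites, where the nearest young rat had 0.0238, a gap of 0.667 of the range. Of 18 such comparisons of the highest or lowest rat of a group, these 2 passed the critical value, and some pass by chance alone. The CpG gap was only just above its critical value of 0.466. Without this rat, the difference between aged and young CpG means was 0.129.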

How the results depend on the processing

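The CpG difference between aged rats of series A and B is a description, since these ratios entered the choice of the locus; it was 0.112 to 0.159 with each rat left out and 0.112 to 0.176 over the 8 alternatives. In the AI against AU calls it was 0.176, and after subtracting the mean of the surrounding 500 kb it was 0.112. The CHH difference between these series was 0 with the median over sites in place of the mean (p = 1), where most ratios are 0, 0.00558 with site-centred ratios (p = 0.0310), and 0.00887 to 0.0110 with each rat left out. The CHG difference passed in the AI against AU calls, at 0.00811 (p = 0.0285), ran from 0.00568 to 0.00861 with each rat left out (p from 0.0238 to 0.143), and was 0.000739 in rats with at least 8 CHG sites.

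The AI minus AU differences did not pass under any alternative, and some changed sign. For CpGs the difference was -0.00451 within series A, 0.121 without series A, 0.0542 by permutation within series (p = 0.144), -0.00675 in rats with at least 8 CpGs, and -0.00604 to 0.0472 with each rat left out. For CHG it was 0.000710 with site-centred ratios, 0.000855 over the sites of both sets, and -0.00266 to 0.000223 with each rat left out. For CHH it was -2.68e-05 without series A, 0.00434 without series B (p = 0.0581), 0.00362 by permutation within series (p = 0.0658), and 0.000379 to 0.00279 with each rat left out. The number of CpGs past p 0.05 for AI against AU was 2 with limma, without or with series as a covariate (5.51% and 5.82% of all CpGs). The number was 0 with at least 8 rats per group (4 CpGs left) and 0 without series B (35 CpGs left). For aged against young rats, a description, it was 18 with limma (6.64% of all CpGs) and 20 with series as a covariate (6.5%). With at least 8 rats per group it was 1 (1 CpG left), and without series A it was 0 (10 CpGs left). The shares of all CpGs with at least 8 rats per group, or with a series left out, are not given here. Nothing is therefore read from the counts in those settings. The age difference in CpG means was 0.129 to 0.188 with each rat left out. The causes of these changes were not tested, beyond the fewer sites where given.

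No site had a value in every rat, so that alternative was not run, and the AI against AU count without series A had no CpG to test. No paired analysis was possible because the labels give no replicate numbers shared between groups. Rats with at least 8 CpGs, subtraction of the surrounding CpGs, the main segment alone, CpGs alone for the share of sites, the runs of CpGs and the young CHG mean without 1 rat were chosen after seeing the data. Depth limits series B most, where 2 aged rats had no CpG value.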
